A study of Mus musculus with 2 samples.

Results

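The Ly49 receptors are a family of lectin-like surface receptors of mouse natural killer (NK) cells, each encoded by a Klra gene. The family members described here are 10 listed Klra genes. All probes whose accession maps to a listed gene were taken, and 9 of the 10 genes had 1 or more such probes, 15 probes in all, among 20649 named genes with a probe on the array. No named probe mapped to Klra3, which encodes Ly49C and was not analysed here. The family was chosen by earlier results of the same arrays, among them the lower signal of Klra8 in the silica-treated pool, so the differences between the pools are a description and no test is given.

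The silica sample was a pool of 5 spleens of female mice injected with silica (SiO2), which the labels call remodelled, and the control was a pool of 5 spleens of female mice given phosphate-buffered saline (PBS). Both were taken on day 19 after the first injection, and the labels give no strain, age or genotype. Each pool was hybridised to 1 one-colour Agilent array, and both arrays were read in 1 scan. There were no replicates, so the values hold for these pools alone, at the precision that 2 arrays allow. Of the spots, 74.9% on the SiO2 array and 75.5% on the PBS array were well above background, and no spot was saturated. A difference is the scaled log2 level in SiO2 minus that in PBS, where scaling subtracted the log2 of an array's own 75th percentile signal, 469 in SiO2 and 670 in PBS.

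Ly49 receptors read MHC class I molecules on neighbouring cells. Inhibitory members carry a tyrosine motif in the cytoplasm that recruits phosphatases such as SHP-1 and restrain killing, whereas activating members have no such motif and signal through the adaptor DAP12, encoded by Tyrobp. Single NK cells express different combinations of the genes, and mouse strains differ in which genes they carry. Ly49B and Ly49Q are inhibitory members known from myeloid cells, and Ly49Q also from plasmacytoid dendritic cells. The genes arose by duplication and are alike in sequence, so a probe of one may take up transcript of another; which probes do so was not tested.

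The likeness of the family can be seen in the promoter windows of the RefSeq table for build GRCm38.p6, which run from 250 bases before to 50 bases after each gene start. All 10 listed genes had a window. They are shown because most members were lower together, and the longest exact runs that at least 7 Klra genes share were searched for in them. There were 2 such runs of 15 bases, gcaatttcctctttt and aggaggggcagaaaa. Each was held exactly by 6 of the 10 listed genes and by Klra6, which is not among the 10. Over both strands of all 32851 windows, 10 windows (0.0304%) held the first run and 9 windows (0.0274%) held the second, and the runs do not overlap each other. Stretches of 80 bases around both runs are given for the 8 listed genes that hold the first run with at most 3 mismatches, 5′ to 3′ on the minus strand, with letters that match a run in capitals.
Klra8 (chr6:130129913-130129992): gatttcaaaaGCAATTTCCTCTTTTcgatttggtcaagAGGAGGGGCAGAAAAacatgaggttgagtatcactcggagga
Klra4 (chr6:130067285-130067364): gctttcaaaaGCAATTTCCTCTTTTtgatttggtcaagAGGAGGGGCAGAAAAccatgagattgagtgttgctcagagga
Klra7 (chr6:130233346-130233425): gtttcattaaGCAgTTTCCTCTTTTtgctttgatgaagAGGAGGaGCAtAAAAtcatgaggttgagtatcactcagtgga
Klra5 (chr6:129913249-129913328): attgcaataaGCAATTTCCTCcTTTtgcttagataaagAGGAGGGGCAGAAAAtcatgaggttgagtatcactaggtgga
Klra9 (chr6:130193085-130193164): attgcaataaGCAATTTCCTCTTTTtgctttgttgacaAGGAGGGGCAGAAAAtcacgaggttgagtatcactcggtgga
Klra3 (chr6:130337580-130337659): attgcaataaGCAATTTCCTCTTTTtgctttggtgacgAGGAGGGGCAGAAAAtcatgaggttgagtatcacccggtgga
Klra17 (chr6:129876681-129876760): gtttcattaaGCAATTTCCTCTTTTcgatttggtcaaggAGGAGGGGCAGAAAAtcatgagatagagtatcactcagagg
Klra2 (chr6:131247368-131247447): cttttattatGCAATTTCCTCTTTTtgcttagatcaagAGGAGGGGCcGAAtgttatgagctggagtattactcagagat

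The spacing between the runs was 13 bases in these stretches, except in Klra17 with 14. Klra7 had 1 mismatch to the first run and 2 to the second, Klra5 had 1 and 0, and Klra2 had 0 and 3. The windows of Klra10 and Klra1 hold neither run within 3 mismatches. At that tolerance 1.56% of all windows hold the first run and 3.12% the second. Klra10, with neither run, had a difference of -1.54, and Klra17, with both runs exact, one of -0.84. Whether the runs bear on the signal was not tested. The window of Klra1, the measured member with the smallest difference in the scaled processed signal, is printed in full on the minus strand. It has no capitals because no letters are marked.
Klra1 (chr6:130386825-130387124): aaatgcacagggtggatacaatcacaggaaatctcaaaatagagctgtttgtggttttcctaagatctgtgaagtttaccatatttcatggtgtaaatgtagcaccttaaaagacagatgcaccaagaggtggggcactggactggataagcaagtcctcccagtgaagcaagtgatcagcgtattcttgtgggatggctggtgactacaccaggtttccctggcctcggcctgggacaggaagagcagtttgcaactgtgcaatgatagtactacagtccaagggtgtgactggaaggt
Among short motifs searched on both strands, TATAAA, the core of a TATA box, was in windows of 6 of the 10 listed genes and in 13.6% of all windows. TGTGGT, a core that RUNX factors bind, was in the Klra1 window only among the 10, and in 16.8% of all windows. These matches describe the letters in the windows and do not show that a factor binds there, and no match says only that the letters are not in this window.

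All 9 measured Ly49 genes had a lower signal in the SiO2 pool. By the brightest probe of each gene, 7 of 9 were at least 2-fold lower and 0 of 9 at least 2-fold higher, while 3.70% of 16774 named genes above background were at least 2-fold lower and 6.62% at least 2-fold higher. The median log2 difference was -1.89 over the 9 genes, against 0.030 over all named genes. Under normexp, a background correction applied to median spot signals that adds 50 to each, 4 of 9 were at least 2-fold lower, beside 1.54% of named genes. The median over all named genes was then 0.18, so normexp values are to be read against that. For dim genes the reference can lie higher. As examples named after their values were seen, Runx2, with signals of 10.4 in SiO2 and 14.9 in PBS, went from -0.01 to 0.37. Itga2, with 16.2 in SiO2 and 24.4 in PBS, went from -0.08 to 0.28. In the authors' deposited table, which lists 6 of the 9 genes, 4 were at least 2-fold lower, beside 4.71% of named genes. The 2 sets of 4 were not the same. Both held Klra4, Klra7 and Klra8. Normexp also had Klra2, which the deposited table does not list, and the deposited table had Klra17, at -1.01 by its dimmer probe. The count and the median were not independent of how the genes were listed. Within whole spleen, fewer NK cells and less receptor RNA per NK cell cannot be told apart.

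**Figure D1:**
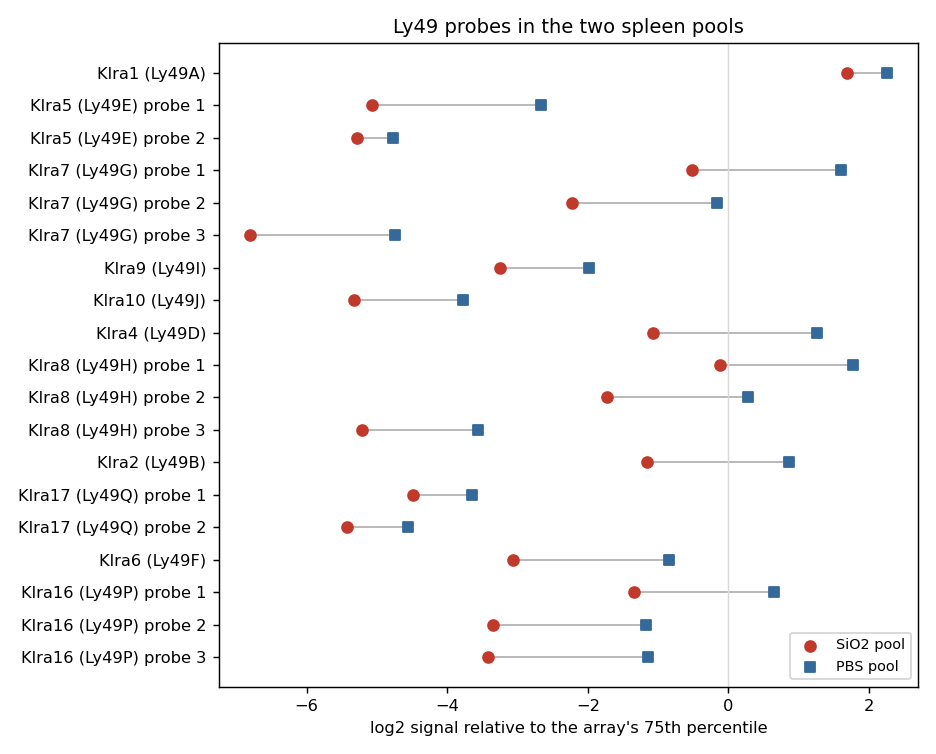
Level of every Ly49 probe on the array of the SiO2 pool (circles) and on that of the PBS pool (squares), as log2 signal relative to the 75th percentile of the array. Probes of a gene run from the brightest down, and levels of different probes are not comparable with each other. In each of the 19 probes, 15 of listed genes and 4 of Klra6 and Klra16, the SiO2 circle lies left of the PBS square.

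The activating receptors were both lower. Klra4 encodes Ly49D, which recognises the class I molecule H2-D of some strains, and had a processed signal of 222 in the SiO2 pool and 1602 in the PBS pool. After scaling this was a level of -1.08 in SiO2 and 1.26 in PBS, or 5.05-fold lower in the SiO2 pool. Klra8 encodes Ly49H, the receptor that recognises a protein of mouse cytomegalovirus, and was measured by 3 probes. The brightest had a signal of 432 in SiO2 and 2288 in PBS, the second 142 in SiO2 and 813 in PBS, and the dimmest 12.7 in SiO2 and 56.8 in PBS. The 3 probes gave 3.71-fold, 4.02-fold and 3.14-fold lower signal in the SiO2 pool after scaling. The scanner software's own error of these differences was 0.20 for both brighter probes and 0.28 for the dimmest on the log2 scale, so the 3 probes lay closer to each other than to a difference of 0.

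The inhibitory receptors of NK cells were lower to different extents. Klra7 encodes Ly49G and had 3 probes. The brightest had a signal of 329 in SiO2 and 2035 in PBS, which was 4.33-fold lower in the SiO2 pool. The second had 99.98 in SiO2 and 602 in PBS, or 4.22-fold lower. The dimmest had 24.9 in PBS but 4.21 in SiO2, where it was not well above background, and was at least 2.85-fold lower against the lowest signal above background on the SiO2 array, which was 6.14. The 2 brighter Klra7 probes thus differed from each other by less than their software error of 0.20.

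Klra9 encodes Ly49I, and its probe had a signal of 49.4 in SiO2 and 170 in PBS, or 2.41-fold lower in the SiO2 pool. Klra10 encodes Ly49J, and its probe had 11.7 in SiO2 and 48.8 in PBS, or 2.91-fold lower. Both probes were well above background on both arrays. The SiO2 signal of Klra10 was nearer than that of Klra9 to the lowest signal above background on the SiO2 array, 6.14. With normexp, Klra9 was at -0.67 and Klra10 at -0.11 on the log2 scale.

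Klra5 encodes Ly49E, an inhibitory receptor typical of fetal NK cells, and its 2 probes disagreed. The brighter probe had a signal of 14.0 in SiO2 and 106 in PBS, or 5.29-fold lower in the SiO2 pool. The other probe was printed in 10 spots, with signals between 9.63 and 15.5 in SiO2 and between 21.0 and 28.1 in PBS. The spots of the 2 arrays did not overlap before scaling, but the scaled mean was only 1.42-fold lower, with a standard deviation of 0.20 on the log2 scale over the 10 spots. These spots share an array and are not replicates of the pools. All 10 scaled spot differences were below 0, between -0.74 and -0.10. Under normexp the 2 probes gave -0.77 and 0.22. The 50 that normexp adds exceeds the signals of the second probe on both arrays, so its sign there is not read as a direction.

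Klra1 encodes Ly49A, an inhibitory receptor for the class I molecule H2-D, and had the smallest difference of the 9 genes by the brightest probe. Its probe had a signal of 1517 in SiO2 and 3193 in PBS, far above background on both arrays. This was 1.48-fold lower in the SiO2 pool, or -0.56 on the log2 scale with a software error of 0.20. Under normexp it was -0.60, and in the authors' deposited table -0.59. Its difference was thus about the same under the 3 ways of processing, and in the scaled processed signal 2190 of the 16774 named genes had a lower value. On that same scale 38 named genes had a lower value than Klra5, 43 than Klra4, 59 than Klra7, 97 than Klra8, 178 than Klra10 and 324 than Klra9. Klra1 did not stand apart under normexp, where Klra9 was at -0.67, Klra5 at -0.77, Klra10 at -0.11 and Klra17 at -0.02. In the authors' deposited table Klra1 had the smallest difference, but the dimmer Klra5 probe was near it at -0.66. Klra1 also had the smallest difference with median scaling (-0.66), quantile normalisation (-0.58), no filter (-0.56) and the mean over probes (-0.56). The same held with B and T cell markers centred on 0 (-0.22). Klra17 came next under these settings.

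**Figure D2:**
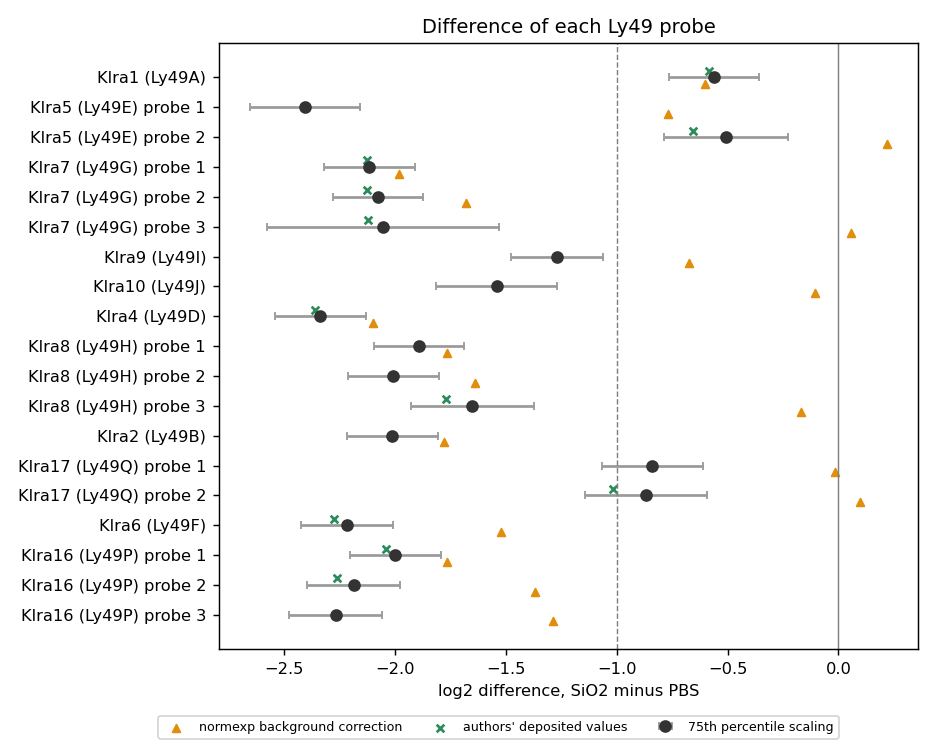
Log2 difference of each Ly49 probe, SiO2 minus PBS, with the scanner software's error as bars (circles), beside the same under normexp background correction (triangles) and in the authors' deposited values where the probe is listed there (crosses). The dashed line marks 2-fold lower. Klra4, Klra2 and the brighter probes of Klra7 and Klra8 lie left of it under all settings shown. The normexp values of Klra10, Klra17, the dimmer Klra5 probe and the dimmest Klra7 and Klra8 probes lie between -0.17 and 0.22. Those of Klra9 and the brighter Klra5 probe are at -0.67 and -0.77.

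The 2 members known from myeloid cells differed from each other. Klra2, which encodes Ly49B, had a signal of 211 in SiO2 and 1216 in PBS, or 4.03-fold lower in the SiO2 pool. Klra17, which encodes Ly49Q, was the other member within 2-fold. Its brighter probe had 20.9 in SiO2 and 53.3 in PBS, and its dimmer probe 10.9 in SiO2 and 28.5 in PBS. These were 1.79-fold and 1.83-fold lower in the SiO2 pool after scaling, with software errors of 0.23 and 0.28 on the log2 scale. Under normexp the brighter probe was at -0.02 and the dimmer one at 0.10. The authors' deposited table lists the dimmer probe alone, at -1.01.

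Markers of the cells in which Ly49B and Ly49Q are known were not uniformly lower. Of 13 plasmacytoid dendritic cell markers, all above background on both arrays, 3 were lower by 2-fold or more and 0 higher. Their median was -0.35 and their summed level 85.2 in SiO2 and 111 in PBS, in multiples of the 75th percentile signal. Siglech, a surface lectin that defines these cells, was at 0.02 by its brighter probe and -0.88 by the other. The interferon-related genes Bst2, Tlr7 and Irf7 were at -1.51, -1.23 and -1.16, with the other Tlr7 probe at -0.86. By the brightest probe 2 of the 13 were above 0, Siglech and Tlr9, the latter at 0.21 and named after its value was seen. Among 15 monocyte and macrophage markers, 3 reached 2-fold lower and 0 reached 2-fold higher. Their median was -0.78 and their summed level 58.2 in SiO2 and 106 in PBS. The 3 were Fcgr1, a high-affinity Fc receptor, at -2.02, Aif1 at -1.50 and Spic, a transcription factor of red pulp macrophages, at -1.49. Of the 15, 14 were below 0 and 1 above 0. The latter was Itgam, named after its value was seen, at 0.59, with its probes between 0.35 and 0.59. Whether these cells contribute to the Klra2 and Klra17 signals was not tested.

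Another 2 Klra genes had probes although they are not among the 10. Klra6, which encodes the inhibitory Ly49F, had a signal of 56.1 in SiO2 and 372 in PBS, or 4.65-fold lower in the SiO2 pool. Klra16, which encodes Ly49P, had 3 probes. The brightest had 185 in SiO2 and 1053 in PBS, and the probes were 4.0-fold, 4.55-fold and 4.82-fold lower in the SiO2 pool. Klra16 is listed by the RefSeq table apart from the main cluster, and Ly49P is known from mouse strains other than C57BL/6.

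Along chromosome 6 the genes lie in the order Klra17, Klra5, Klra6, Klra4, Klra8, Klra9, Klra7, Klra10, Klra3 and Klra1, with pseudogenes between some of them, and Klra2 follows after other genes. The members with the smallest differences, Klra17 at -0.84 and Klra1 at -0.56, are the first and the last of this run. Klra2 lies beyond Klra1 and was at -2.01, so the differences did not fade steadily toward that side. Under normexp the smallest differences were those of Klra17 at -0.02 and Klra10 at -0.11. In the authors' deposited table they were those of Klra1 at -0.59 and Klra5 at -0.66, with Klra17 at -1.01. That table lists only the dimmer Klra5 probe, which was at -0.51 in the scaled processed signal, so the Klra5 value differs by probe. Klra1 and Klra17 kept the smallest differences with median scaling, quantile normalisation, no filter and the mean over probes. They also did with B and T cell markers centred on 0. By the brightest probe in the scaled processed signal, the measured genes between Klra17 and Klra1 lay between -2.40 for Klra5 and -1.27 for Klra9.

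**Figure D3:**
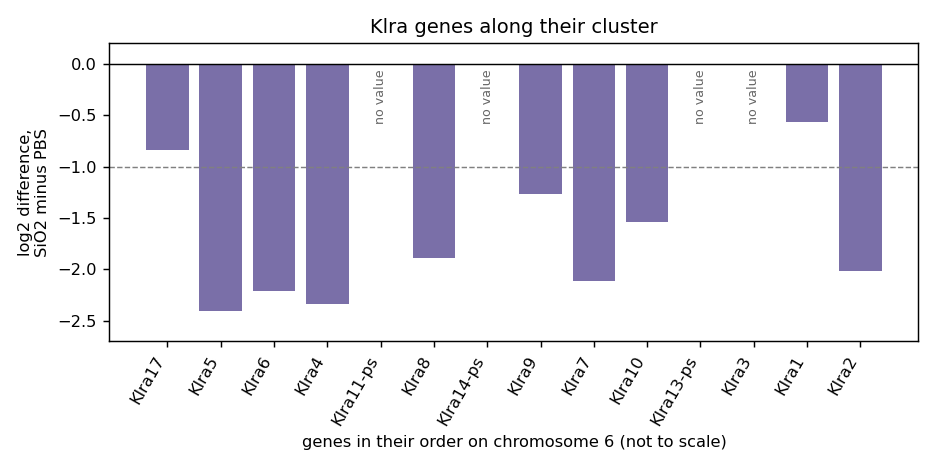
Log2 difference of each Klra gene by its brightest probe, SiO2 minus PBS, in the order of the genes on chromosome 6, not to scale. Genes with no value had no named probe. The first gene, Klra17, and Klra1 lie above the dashed line that marks 2-fold lower, and the other measured genes lie below it.

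Receptors that neighbour the Ly49 genes in the NK gene complex, or share their lectin-like fold, were also lower in large part. Among 19 with a value, 11 reached 2-fold lower and 1 reached 2-fold higher, and the median was -1.06. Klre1, a receptor that pairs with Klri chains, was at -1.90, Klrb1c, which encodes NK1.1, at -1.88, Klrb1a at -1.55, Clec2d at -1.52 and Klri2 at -1.42. The 2 genes above 0 were Olr1, a scavenger receptor for oxidised lipoprotein, at 1.59, and Clec12a, an inhibitory lectin of myeloid cells named after its value was seen, at 0.53. Klrk1, which encodes the activating receptor NKG2D, was at -1.20, and Klrd1, which encodes CD94, at -1.06. Under normexp this median was -0.33, and Klre1 was at -0.62 and Klrb1c at -0.89.

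Identity and killing genes of NK cells had a median closer to 0 than the Ly49 genes in the scaled processed signal, but not under normexp, where it was -0.78 for these genes and -0.77 for the Ly49 genes. Of 16 genes, some of them also in the receptor list, 10 reached 2-fold lower and 1 reached 2-fold higher, with a median of -1.09 and a summed level of 17 in SiO2 and 32.6 in PBS. Ncr1, the receptor NKp46 that defines NK cells, had a signal of 48.4 in SiO2 and 253 in PBS, a difference of -1.87. Gzma and Gzmb, the granzymes, were at -2.62 and -2.06. Ncam1 was higher, at 1.57, and whether NK cells gave this signal was not tested. Prf1, which encodes perforin, was at 0.01 by its single probe, with a signal of 60.5 in SiO2 and 86.1 in PBS, and is named after its value was seen. Whether the gap between the Ly49 median and this median is more than the spread between animals was not tested, because there is 1 array for each pool.

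**Figure D4:**
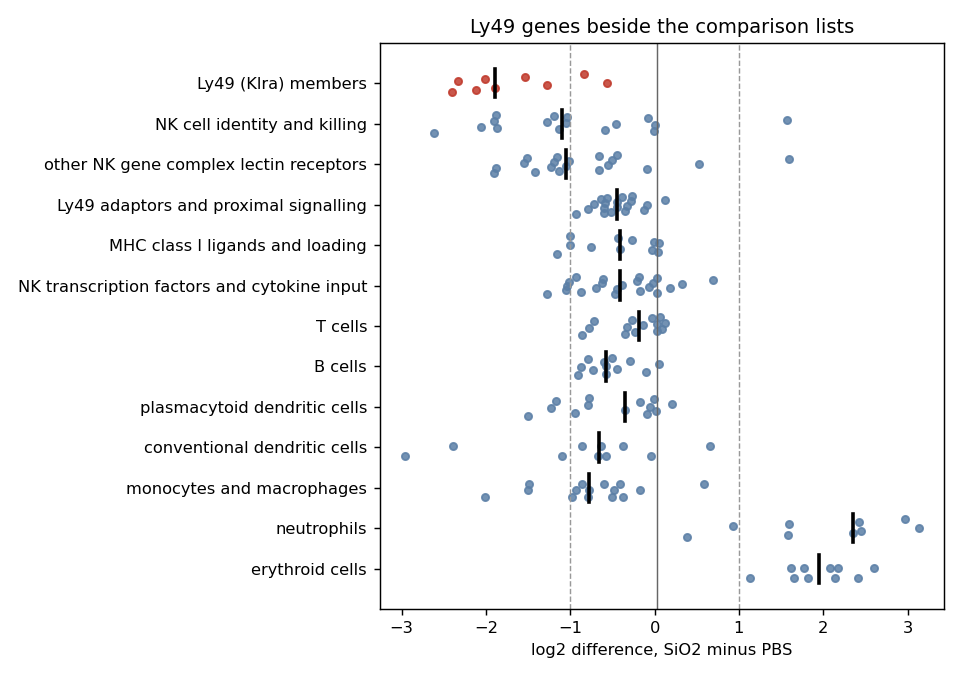
Log2 difference, SiO2 minus PBS, of the measured Ly49 genes (red, top row) and of the genes of each comparison list (blue), with the list median as a black bar. The thin line is the median over all named genes, 0.030, and the dashed lines mark 2-fold lower and higher. The Ly49 genes have the lowest median of the rows shown, -1.89, in the scaled processed signal plotted here, though not under normexp (-0.77, against -0.78 for NK identity genes), and the neutrophil and erythroid rows lie to the right of 0.

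Adaptors and proximal signalling genes of the Ly49 receptors differed less. Of 19 genes, 18 were below 0, and 0 of 19 were at least 2-fold lower or higher, with a median of -0.45. Tyrobp, the DAP12 adaptor of the activating receptors, had a signal of 3271 in SiO2 and 7077 in PBS and was at -0.60. Hcst, which encodes the adaptor DAP10, was at -0.33, and the signalling chain Fcer1g and the T cell adaptor Lat were both at -0.45. Ptpn6, the phosphatase SHP-1 that inhibitory members recruit, was at -0.52. These genes are also expressed in myeloid, B or T cells, so they do not report on NK cells alone.

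Genes of the class I ligands that Ly49 receptors bind differed by gene and by probe. H2-K1 was at -0.03 by its brighter probe and -0.69 by the other, H2-D1 at -0.26, and the light chain B2m at -0.01. Among 11 genes of class I ligands and loading with a value, 3 reached 2-fold lower and 0 reached 2-fold higher, and the median was -0.41. The 3 were H2-M3 at -1.16 and the peptide transporter subunits Tap1 and Tap2, both at -1.0 and so at the limit of 2-fold.

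Transcription factors and cytokine receptors of NK cells were partly lower. Of 22 genes, 4 reached 2-fold lower and 0 reached 2-fold higher, 17 were below 0 and 5 above 0, and the median was -0.42. The highest was Il12rb1, named after its value was seen, at 0.69 by its brighter probe and -1.42 by the other. Eomes, a T-box factor of mature NK cells, was at -1.28, Id2, a factor needed for NK cell development, at -1.05, Il2rb, the receptor chain shared by interleukins 2 and 15, at -1.03, and Il15, the cytokine that maintains NK cells, at -1.01.

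The other lymphocytes differed less than the Ly49 genes. Of 14 measured T cell markers, 0 were at least 2-fold lower or higher, with a median of -0.18 and a summed level of 24.3 in SiO2 and 32.3 in PBS, and Cd5 was at -0.23. Of 12 B cell markers, 0 were at least 2-fold lower or higher, with a median of -0.57 and a summed level of 78.0 in SiO2 and 110 in PBS. Conventional dendritic cell markers had 3 of 10 at least 2-fold lower, with a median of -0.66 and a summed level of 16.6 in SiO2 and 26.6 in PBS. The 3 were the cross-presenting cell genes Xcr1 at -2.95, Clec9a at -2.39 and Batf3 at -1.09. Of the 10, 9 were below 0 and 1 above 0. The latter was Zbtb46, named after its value was seen, at 0.66 by its brighter probe and 0.73 by the other.

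Neutrophil and erythroid markers were higher in the SiO2 pool, and every measured gene of the lists described here was above background on both arrays. Of 9 measured neutrophil markers 7 were at least 2-fold higher, with a median of 2.35 and a summed level of 194 in SiO2 and 84.7 in PBS. Of 10 erythroid markers all 10 were at least 2-fold higher, with a median of 1.95 and a summed level of 210 in SiO2 and 62.4 in PBS. Scaling gives each level relative to the 75th percentile signal of its array, not to the total RNA of the pool. Whether the higher signal of these cells moves the Ly49 values was not tested. When 0.34 was added to every difference, which centres the lymphocyte (B and T cell) markers on 0, the Ly49 median was -1.55, and 6 of 9 genes were at least 2-fold lower, beside 1.66% of all named genes.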

How the data were processed

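RNA of 5 pooled SiO2-remodelled spleens and RNA of 5 pooled PBS spleens were each measured on 1 Agilent array in a single colour. Per the labels' protocols, RNA was prepared with a blood kit that lyses red and white cells separately, and globin message was reduced. Per the file headers, the authors' deposited scanner files hold spot intensity from Agilent Feature Extraction 11.0.1.1, and 9.1 is the version per the submitters' processing notes. The authors' deposited table holds log2 values for part of the probes, by a method not given in the sources used here; they had a slope of 1.01 (SiO2) and 0.995 (PBS) against the scaled scanner values.

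Spots marked as outliers were left out (148 on the SiO2 array, 145 on the PBS array of 43020). Processed intensity was taken as log2, minus the 75th percentile of the array, and averaged over spots of a probe. Accessions were matched to the RefSeq table of GRCm38.p6 for names (27217 of 39398 probes, 69.1%). Each gene took the value of its brightest probe among those detected in either pool. Where it was not above background on the other array, a value under the lowest signal above background was raised to it. The scanner software's error of each signal was combined over both arrays to an error of the difference, which was 0.20 to 0.28 on the log2 scale for the probes of listed genes above background on both arrays. Over 295 probes with at least 8 spots, the standard deviation of the difference was 0.061 at the median and 0.206 at the 95th percentile. Both errors are technical. Normexp, an alternative, was run on the median spot signal, because the files hold no mean spot signal. With 1 array a group, no test was run.

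The members and lists were chosen with earlier results of these data known. The genes named were all Klra genes, from each list those with the largest difference of at least 2-fold and those nearest the median, and a set of NK receptors, adaptors and ligands. Python 3.11.15, numpy 2.4.6, pandas 2.3.3 and limma 3.58.1 in R 4.3.3 were used; differences were checked on simulated signals.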

Additional observations from a re-analysis of the deposited data

How the results depend on the processing

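All 9 measured Ly49 genes stayed below 0 by the gene value under each alternative that gave them one. With normexp background correction, 4 of 9 were at least 2-fold lower (Klra2, Klra4, Klra7 and Klra8) and the median was -0.77, beside 259 (1.54%) of all named genes lower and 655 higher. Klra1, which is bright, was within 2-fold with or without normexp. Klra5, Klra9 and Klra10 were at least 2-fold lower in the scaled processed signal but within 2-fold under normexp, and had SiO2 signals of 11.7 to 49.4. The authors' deposited values hold 6 of the 9 genes, of which 4 were at least 2-fold lower (Klra4, Klra7, Klra8 and Klra17). Their median over the 6 was -1.39, beside 4.71% of all named genes lower and 700 genes higher. With lymphocyte (B and T cell) markers centred on 0, the Ly49 median was -1.55, and 279 named genes were lower and 2233 higher, in place of 620 lower and 1111 higher. With the mean over the probes of a gene the Ly49 median was -1.54. Median scaling and quantile normalisation left 7 of 9 at least 2-fold lower, beside 815 and 751 of the 16774 named genes above background. No filter also left 7 of 9, beside 882 of all 20649 named genes with a probe. Klra4, Klra7 and Klra8 were at least 2-fold lower under all 7 alternatives, and Klra2 under the 6 that list it. Klra1 ranged between -0.66 and -0.22, Klra17 between -1.01 and -0.02 and Klra5 between -2.52 and -0.66. The deposited table lists only the dimmer probe of Klra5 and of Klra17 and the dimmest of Klra8, so those values differ by probe as well as by processing. The T cell median ranged between -0.28 and 0.16 and was above 0 only with the B and T cell shift. No paired analysis was possible because each group is 1 array, and no array could be left out. Signal over background limits Klra5, Klra10 and Klra17, whose SiO2 signals were 10.9 to 20.9.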
